A study of Mus musculus with 87 samples.

Results

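Nlrc5, B2m, H2-K1 and H2-D1 were followed as 4 genes of 48526 in a plate table of counts from sorted mouse midbrain nuclei and of 48531 in a table of single nuclei. They were taken by their gene symbols. The mice were wildtype C57BL/6J adults of both sexes that received saline, or recombinant mouse IFN-γ in saline, by injection into the ventral midbrain. Nuclei were isolated, stained for NeuN, a nuclear protein of most neurons, and sorted into wells at 6, 24, 48 and 72 h (84 wells), or sequenced one by one at 48 h (3 mice). Each fraction held 6 IFN-γ wells per time, with 6 saline wells at 24 h and 4 at every other time. The sample labels call all wells NeuN+, so the fraction was taken from the study's own list of wells by barcode, which gave 42 NeuN- and 42 NeuN+ wells and carried the same treatment and time as the labels for all 84. A figure legend of the study counts the wells of each fraction differently, and this was not resolved. Wells came from few mice, and which wells shared a mouse was not known, so p-values measure the spread between wells. IFN-γ wells of different times came from different mice, so that time and mouse cannot be told apart.

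MHC class I molecules display peptides made inside the cell to CD8+ T cells. H2-K1 and H2-D1 encode the classical heavy chains of C57BL/6 mice, which span the membrane and bind the peptide. B2m encodes beta-2 microglobulin, the light chain that these heavy chains pair with for normal levels at the cell surface. NLRC5 is the class I transactivator: it does not bind DNA by itself, but joins a protein complex on class I promoters, and its own gene is turned on downstream of the IFN-γ receptor. In the healthy brain class I levels are low, and neurons in particular have long been described as poor in class I.

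Nlrc5 lies on chromosome 8 at chr8:94434356-94527272 on the plus strand and B2m on chromosome 2 at chr2:122147686-122153083 on the plus strand (GENCODE vM21, GRCm38). H2-K1 at chr17:33996017-34000347, on the minus strand, and H2-D1 at chr17:35262730-35267499, on the plus strand, lie 1262.4 kb apart in the H-2 region. The promoters of B2m, H2-K1 and H2-D1 are shown because the elements that IRF proteins, NF-κB and the NLRC5 complex are known to use can be read in them (RefSeq, GRCm38.p6, 5′ to 3′ on the strand of the gene). Capitals mark matches to 4 motifs on either strand, and none of them overlaps another. Promoter windows were matched by symbol for 3 of the 4 genes. The windows shown are B2m at chr2:122147540-122147648, H2-K1 at chr17:34000349-34000468 and H2-D1 at chr17:35262913-35263055, each within 250 bases before the RefSeq start (122147687, 34000347 and 35263094). The RefSeq start of H2-D1 lies inside the gene span given above, which begins further upstream.
B2m: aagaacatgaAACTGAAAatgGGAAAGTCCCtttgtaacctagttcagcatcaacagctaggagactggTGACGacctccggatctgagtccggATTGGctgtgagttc
H2-K1: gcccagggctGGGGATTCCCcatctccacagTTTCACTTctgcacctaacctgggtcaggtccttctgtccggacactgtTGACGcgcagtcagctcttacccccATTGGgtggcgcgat
H2-D1: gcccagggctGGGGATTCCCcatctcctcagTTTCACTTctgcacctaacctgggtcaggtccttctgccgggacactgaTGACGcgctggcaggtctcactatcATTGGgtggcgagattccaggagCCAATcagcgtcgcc

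Each promoter held an IRF-type match (AANNGAAA), a kappaB match (GGG, any 2 bases, TT, any base and CC), the CRE-type letters TGACG and CCAAT, of which the last 2 lie in the module that the NLRC5 complex is known to occupy. The CRE-type match and the reversed CCAAT were 20 bases apart in all 3. The IRF-type and kappaB matches were 3 bases apart in B2m and 11 bases apart in H2-K1 and H2-D1, with the order of the pair turned round between B2m and the heavy chains. Of 32851 windows of 250 bases before a gene start, 21.3% held the IRF-type letters, 4.11% the kappaB letters, 17.8% TGACG and 33.8% CCAAT, and 24 windows (0.0731%) held all 4. The GAS letters TTCNNNGAA, in 7.02% of windows, were not in these 3 windows. The letters were chosen after these promoters had been viewed, so the match counts are a description only.

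Nlrc5 was raised over saline at all 4 times in both fractions, with the largest fold at 24 h in NeuN+ and at 48 h in NeuN- wells, and its level after IFN-γ fell between 24 and 48 h. In NeuN+ wells, the neuronal fraction, the lowest, median and highest Nlrc5 level among 6 IFN-γ wells was 124, 128 and 145 CPM (counts per 1000000 counts of the well) at 6 h. At 24 h these were 136, 153 and 188 CPM. At 48 h they were 8.10, 12.3 and 17.7 CPM, and at 72 h 6.14, 10.5 and 15.1 CPM. The levels thus formed a high pair of early times and a low pair of late times that did not overlap, with each pair overlapping within itself.

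Saline NeuN+ wells held almost no Nlrc5: 0, 1.26, 2.15 and 3.52 CPM at 6 h, and 0, 1.29 and 2.51 CPM as lowest, median and highest at 24 h. The 4 saline wells read 0, 0.841, 1.54 and 1.84 CPM at 48 h. At 72 h they read 0, 1.59, 1.94 and 3.67 CPM. At every time the lowest IFN-γ well was above the highest saline well. The difference, from edgeR's quasi-likelihood test over all genes of each fraction and time, was 5.85 on the log2 scale at 6 h (SE 0.24, adjusted p = 2.58e-18), 6.80 at 24 h (SE 0.21, adjusted p = 1.62e-18), 3.25 at 48 h (SE 0.50, adjusted p = 0.00057) and 2.64 at 72 h (SE 0.50, adjusted p = 0.000443). These correspond to a 57.5-fold, 111-fold, 9.52-fold and 6.23-fold higher level.

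In NeuN- wells, which hold mostly glia, Nlrc5 was higher and fell less. Its lowest, median and highest level in IFN-γ wells was 497, 624 and 763 CPM at 6 h and 402, 497 and 541 CPM at 24 h. It was 95.6, 160.2 and 214 CPM at 48 h and 73.1, 118 and 163 CPM at 72 h. Here too the early and late wells did not overlap, while 6 h overlapped 24 h and 48 h overlapped 72 h.

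The saline NeuN- wells read 14.5, 17.1, 19.1 and 60.0 CPM at 6 h and 13.7, 19.5 and 57.7 CPM (lowest, median and highest) at 24 h. They read 0, 0, 8.42 and 9.83 CPM at 48 h. At 72 h they read 0, 6.61, 7.44 and 14.4 CPM. The 4 saline wells of 48 h held 2 Nlrc5 counts between them and those of 72 h 4, so the later baselines rest on few molecules. Nlrc5 was 21.8-fold higher after IFN-γ at 6 h, 18.3-fold at 24 h, 32.2-fold at 48 h and 14.2-fold at 72 h, with log2 differences of 4.45 (SE 0.26, adjusted p = 1.66e-16), 4.19 (SE 0.25, adjusted p = 2.88e-14), 5.01 (SE 0.55, adjusted p = 3.87e-09) and 3.83 (SE 0.50, adjusted p = 2.35e-07).

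**Figure D1:**
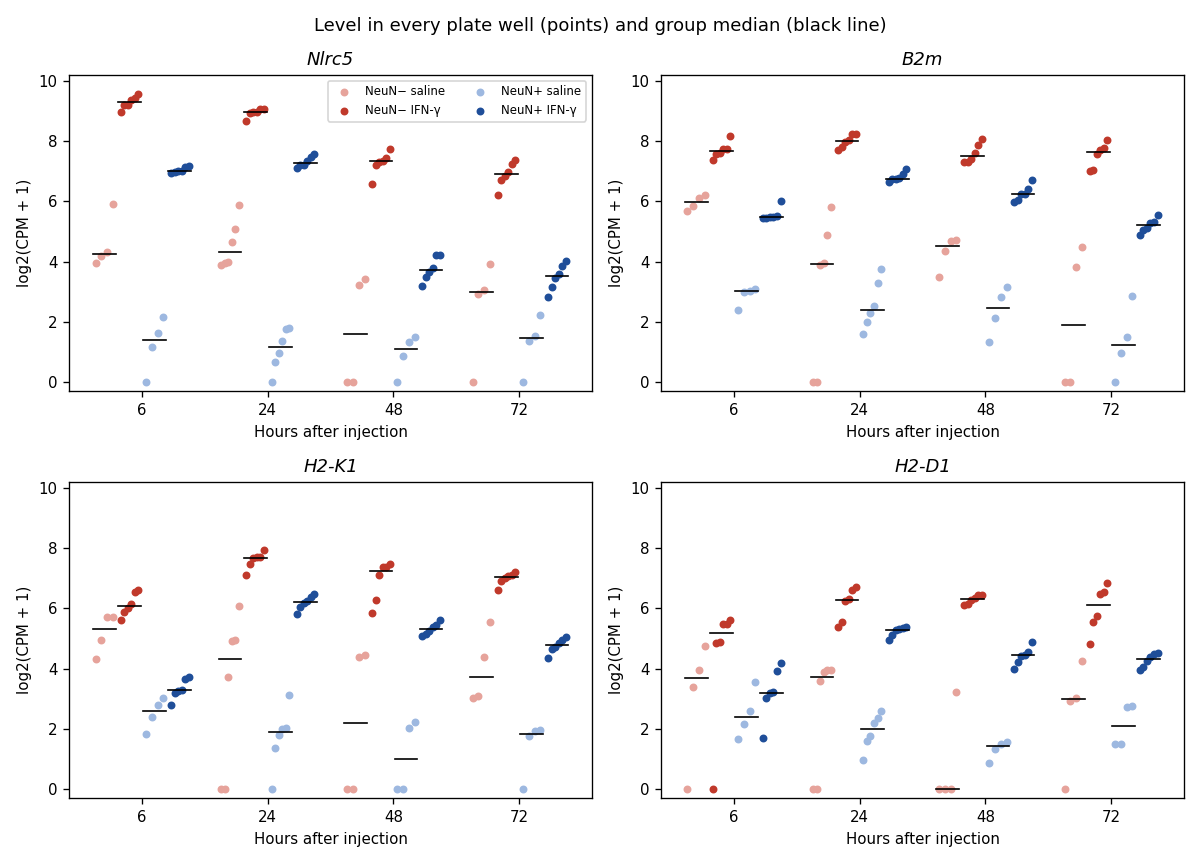
Level of each gene on a log2(CPM + 1) axis against hours after injection, with 1 point per well for IFN-γ and saline wells of both fractions and a black line at each group's median. Nlrc5 is high at 6 and 24 h and lower at 48 and 72 h, whereas the heavy chains H2-K1 and H2-D1 have their highest NeuN+ medians (72.2 and 38.1 CPM) at 24 h.

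B2m, the shared light chain, was already raised at 6 h. In NeuN+ IFN-γ wells it read 42.3, 43.7 and 63.3 CPM (lowest, median, highest) at 6 h and 98.5, 107 and 133 CPM at 24 h. It read 62.0, 74.2 and 105 CPM at 48 h and 28.7, 35.9 and 46.0 CPM at 72 h. The 18 saline NeuN+ wells of the 4 times lay between 0 and 12.5 CPM, below every IFN-γ well. B2m rose by 2.84 (SE 0.27, adjusted p = 1.41e-09), 4.23 (SE 0.20, adjusted p = 1.86e-14), 3.98 (SE 0.27, adjusted p = 2.11e-09) and 3.62 (SE 0.33, adjusted p = 2.25e-09) on the log2 scale at 6, 24, 48 and 72 h.

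In NeuN- IFN-γ wells B2m stayed in one range, with 164, 203 and 286 CPM at 6 h and 209, 257 and 301 CPM at 24 h. It held 158, 182 and 268 CPM at 48 h and 127, 199 and 260.3 CPM at 72 h. The groups of the 4 times overlapped one another. Saline wells read 50.0, 57.3, 68.5 and 72.5 CPM at 6 h and from 0 to 55.1 CPM at 24 h. They read 10.4, 19.7, 25.0 and 25.3 CPM at 48 h. At 72 h they read 0, 0, 13.2 and 21.6 CPM. All of them lay under the IFN-γ wells of the same time. B2m rose by 1.60 at 6 h (SE 0.26, adjusted p = 3.83e-06), 3.55 at 24 h (SE 0.36, adjusted p = 1.75e-09), 3.39 at 48 h (SE 0.36, adjusted p = 3.87e-09) and 4.17 at 72 h (SE 0.45, adjusted p = 6.66e-09), while the level in the IFN-γ wells themselves did not pass the test between any successive times.

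H2-K1, a heavy chain, came later than B2m. In NeuN+ IFN-γ wells it read only 5.92, 8.74 and 12.3 CPM at 6 h, beside 2.52, 4.30, 5.86 and 7.22 CPM in saline, so that the groups overlapped. It reached 54.9, 72.2 and 87.5 CPM at 24 h, 32.5, 38.9 and 48.3 CPM at 48 h and 19.3, 26.3 and 32.0 CPM at 72 h. Saline wells of these later times lay between 0 and 7.72 CPM, below all IFN-γ wells. H2-K1 rose by 4.42 (SE 0.26, adjusted p = 1.13e-12), 4.25 (SE 0.37, adjusted p = 2.48e-07) and 3.40 (SE 0.35, adjusted p = 2.43e-08) on the log2 scale at 24, 48 and 72 h.

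In NeuN- IFN-γ wells H2-K1 read 47.7, 66.4 and 96.1 CPM at 6 h, against 19.1, 30.0, 50.8 and 51.4 CPM in saline, again with overlap. At 24 h it read 138, 203 and 241 CPM, at 48 h 56.9, 149 and 175 CPM and at 72 h 95.4, 131 and 145 CPM. The saline wells reached at most 66.2 CPM at 24 h, 20.7 CPM at 48 h and 45.4 CPM at 72 h, each below the lowest IFN-γ well of the same time. The rise was 3.0 (SE 0.40, adjusted p = 2.84e-07), 3.39 (SE 0.50, adjusted p = 4.07e-06) and 2.67 (SE 0.39, adjusted p = 3.39e-06) on the log2 scale at 24, 48 and 72 h.

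H2-D1, the other heavy chain, shares sequence with its relatives: 14.3% of its transcript's 50-base stretches, and 9.53% of those in the last 500 bases, also occur in other genes, against 8.79% and 0.443% for H2-K1 and none for Nlrc5 and B2m. Counts of the heavy chains are uncertain to that extent. In NeuN+ IFN-γ wells it read 2.23, 8.21 and 17.3 CPM at 6 h, overlapping the saline wells at 2.15, 3.52, 5.05 and 10.8 CPM. It then read 30.1, 38.1 and 41.0 CPM at 24 h, 14.8, 20.7 and 28.3 CPM at 48 h and 14.3, 19.1 and 22.1 CPM at 72 h. Saline wells of those times were at or under 5.80 CPM, clear of the IFN-γ wells. H2-D1 rose by 3.56 (SE 0.24, adjusted p = 1.62e-11), 3.74 (SE 0.40, adjusted p = 6.89e-06) and 2.13 (SE 0.32, adjusted p = 2.58e-05) at 24, 48 and 72 h.

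Some members were too low for the test across all genes, which keeps only genes above a count limit. H2-K1 at 6 h in both fractions, and H2-D1 at 6 h in NeuN+ wells and at all 4 times in NeuN- wells, were compared by an exact two-sided permutation test over wells on log2(CPM + 1), unadjusted. H2-D1 in NeuN- IFN-γ wells read 0, 35.9 and 48.2 CPM at 6 h, 40.2, 76.3 and 103 CPM at 24 h, 67.5, 78.4 and 86.8 CPM at 48 h and 27.2, 69.9 and 114 CPM at 72 h. Saline wells were at or under 25.7, 14.7, 8.42 and 18.2 CPM at these times, so the groups overlapped at 6 h and at no other time. The differences were 1.36 at 6 h (exact p = 0.286), 3.56 at 24 h (exact p = 0.00217), 5.48 at 48 h (exact p = 0.00952) and 3.44 at 72 h (exact p = 0.00952), and the last 3 p-values are the smallest these numbers of wells allow. At 6 h H2-K1 differed by 0.96 in NeuN- wells (exact p = 0.0286) and by 0.81 in NeuN+ wells (exact p = 0.0190), and H2-D1 by 0.71 in NeuN+ wells (exact p = 0.219).

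Among these member values 19 of NeuN- and 9 of NeuN+ wells were 0, where 3 counts would have been 15.6 to 143 CPM in NeuN- and 2.52 to 10.8 CPM in NeuN+ wells. Counted together, all 25 tests of a member that passed the count limit were called higher after IFN-γ, a call being a log2 difference beyond 1 with an adjusted p below 0.01. With saline levels near 0, a member passed the count limit mainly through its IFN-γ wells, so this count was partly set by the limit and is a description. In NeuN- wells these were 2 of 2 at 6 h and 3 of 3 at each later time, beside 7.86%, 7.22%, 1.23% and 0.754% of all tested genes called higher at 6, 24, 48 and 72 h. In NeuN+ wells they were 2 of 2 at 6 h and 4 of 4 later, beside 1.08%, 1.47%, 0.15% and 0.351%. Each of the 25 values kept its sign and its side of the limits in the fits that left out 1 well and still tested it. NeuN- wells held 20962 to 301445 counts (median 110247.5) and NeuN+ wells 277113 to 1684374 (median 1064222). When NeuN+ wells were thinned to the median NeuN- depth, Nlrc5 at 6 and 24 h (5.25 and 5.93) were the only NeuN+ values still above the count limit.

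**Figure D2:**
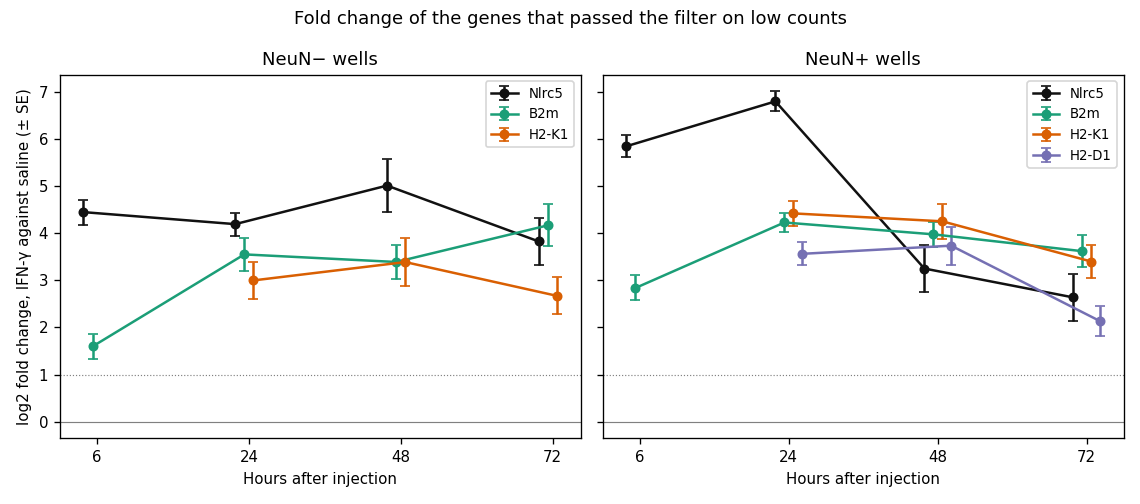
Log2 fold change between IFN-γ and saline wells against hours after injection, with bars of 1 SE, for each gene above the count limit, by fraction; the dotted line marks the limit of 1. Nlrc5 in NeuN+ wells drops from 6.80 at 24 h to 3.25 at 48 h, while H2-K1 and H2-D1 there lie between 3.56 and 4.42 at these times.

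The groups of wells also differed in markers of cell types. In NeuN- wells the summed level of 6 oligodendrocyte markers had a median of 4579, 2616, 7489 and 7935 CPM after IFN-γ at 6, 24, 48 and 72 h, against 7839, 7721, 8195 and 8178 CPM after saline. Their 6 astrocyte markers summed to 956, 1913, 1093 and 942 CPM after IFN-γ and to 732, 790, 659 and 1192 CPM after saline. Their 7 microglial markers summed to 130.0, 296, 298 and 514 CPM after IFN-γ and to 450, 502, 544 and 424 CPM after saline, with C1qa at 0 in 3 of the 16 groups of both fractions. In NeuN+ wells the oligodendrocyte sum was 182, 282, 398 and 669 CPM after IFN-γ and 302, 369, 308 and 373 CPM after saline. The NeuN+ astrocyte sum was 299 CPM after IFN-γ and 171 CPM after saline at 24 h, and the sum of 6 dopamine neuron markers 500.0 and 209 CPM at 72 h. The part of these differences in the results was not tested, and in sorted wells fewer cells of a type and less RNA per cell cannot be told apart. T cell markers had a median of 0 over all wells of each fraction. By group, their highest medians were in IFN-γ wells of 48 h, at 3.45 CPM in NeuN- and 0.69 CPM in NeuN+ wells. The saline medians of 48 h were 0. The highest single NeuN- wells held 19.3 CPM after IFN-γ, at 48 h, and 10.0 CPM after saline, at 6 h.

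Setting the fractions side by side, every member stood higher in NeuN- than in NeuN+ IFN-γ wells at each time it was tested, by the same fit with 4 groups per time. For Nlrc5 the level difference was 2.10 at 6 h (SE 0.10, adjusted p = 4.34e-27), 1.63 at 24 h (SE 0.11, adjusted p = 5.46e-19), 3.65 at 48 h (SE 0.25, adjusted p = 1.87e-15) and 3.42 at 72 h (SE 0.26, adjusted p = 3.21e-17). B2m differed by 1.96, 1.12, 1.40 and 2.26 and H2-K1 by 2.88, 1.34, 1.76 and 2.20 at these times. H2-D1 differed by 1.02 at 24 h, 1.86 at 48 h and 1.75 at 72 h. All 15 of 15 were called, beside 18.2%, 15.4%, 17.4% and 16.7% of all genes called higher in NeuN- at 6, 24, 48 and 72 h. A member could pass the count limit of this fit mainly through its NeuN- IFN-γ wells. H2-K1 at 6 h, for example, had medians of 66.4 CPM in NeuN- and 8.74 CPM in NeuN+ IFN-γ wells. This tally was thus partly set by the limit and is a description. With RLE factors, another scaling of the libraries, the values at 24 h fell under the limit of 1 for H2-D1 (0.89) and B2m (0.99).

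Expressed as a percent, the median Nlrc5 level in NeuN+ IFN-γ wells was 20.5% of that in NeuN- wells at 6 h, 30.8% at 24 h, 7.65% at 48 h and 8.90% at 72 h. The same percent for B2m was 21.5%, 41.7%, 40.8% and 18.1%. For H2-K1 it was 13.2%, 35.5%, 26.2% and 20.1%, and for H2-D1 22.9%, 50.0%, 26.4% and 27.3%. Nlrc5 was thus the member whose share in NeuN+ wells was lowest at 48 and 72 h. Beside it, the oligodendrocyte marker sum in NeuN+ wells was 3.98%, 10.8%, 5.31% and 8.43% of that in NeuN- wells, and the microglial marker sum 71.8%, 33.6%, 42.3% and 20.4%. How much of the Nlrc5 counted in NeuN+ wells came from glial nuclei among them was not tested.

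The size of the IFN-γ effect itself differed between fractions for 1 of 15 tests, at 24 h, where 4.22% of all genes were called in either direction, beside 2.53%, 0.128% and 0.347% at 6, 48 and 72 h. The Nlrc5 effect at 24 h was smaller in NeuN- wells, by 2.38 on the log2 scale (interaction -2.38, 95% interval -3.54 to -1.22, adjusted p = 0.00171). The median saline level at 24 h was 19.5 CPM in NeuN- and 1.29 CPM in NeuN+ wells. Without 1 saline NeuN- well of 24 h the adjusted p was 0.022, and with NeuN+ wells thinned the value was -1.77 (adjusted p = 0.159), so the call did not hold in either. At 48 h the Nlrc5 value was 2.12 in the other direction, with SE 1.17 and adjusted p = 0.536.

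In saline wells, over the 4 times, medians in NeuN- and NeuN+ wells were 14.4 and 1.56 CPM for Nlrc5 and 20.6 and 4.55 CPM for B2m. They were 19.7 and 2.84 CPM for H2-K1 and 7.81 and 2.28 CPM for H2-D1. No member reached the count limit in this comparison. With no such limit, Nlrc5 stood 2.87 (adjusted p = 2.61e-12), B2m 1.94 (adjusted p = 8.24e-11) and H2-K1 2.45 (adjusted p = 2.31e-13) higher on the log2 scale in NeuN- wells, and H2-D1 0.92 (adjusted p = 0.0871), beside 6.96% of all genes called higher. All 4 genes were thus counted in both fractions without IFN-γ.

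Between successive times, 7 of 21 tests in IFN-γ wells were called. A member could pass the count limit here through the times at which it was high. H2-K1 and H2-D1 in NeuN+ wells, for example, had medians of 72.2 and 38.1 CPM at 24 h and of 8.74 and 8.21 CPM at 6 h. This tally was thus partly set by the limit and is a description. From 6 to 24 h B2m rose by 1.26 (adjusted p = 1.93e-11), H2-K1 by 2.96 (adjusted p = 1.52e-17) and H2-D1 by 1.88 (adjusted p = 6.88e-09) in NeuN+ wells, beside 1.31% of all genes, whereas Nlrc5 moved by 0.27 (adjusted p = 0.0361) and was not called. In NeuN- wells H2-K1 rose by 1.28 over that step (adjusted p = 3.41e-06), beside 5.82% of all genes. From 24 to 48 h Nlrc5 fell by 3.66 on the log2 scale in NeuN+ wells (adjusted p = 6.35e-24), beside 1.43% of all genes called lower. It fell by 1.56 in NeuN- wells (adjusted p = 1.62e-12), beside 5.78%. From 48 to 72 h B2m fell by 1.02 in NeuN+ wells (adjusted p = 1.73e-07), beside 0.195%, and no member was called in NeuN- wells, beside 0.1%.

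The Nlrc5 drop from 24 to 48 h was smaller in NeuN- than in NeuN+ wells by 2.10 on the log2 scale (SE 0.24, adjusted p = 5.17e-09), a contrast added after the data had been seen, in which 2.76% of all genes were called higher. With NeuN+ wells thinned it was 2.44. The same contrast was 0.90 for H2-D1 (adjusted p = 0.0393), 0.50 for H2-K1 (adjusted p = 0.2) and 0.36 for B2m (adjusted p = 0.271). Taken as a change of the effect over each time's own saline wells, the NeuN- drop of Nlrc5 turned to 0.80 (adjusted p = 0.59), with saline Nlrc5 also lower at 48 h, and the NeuN+ drop was -3.56 (adjusted p = 0.024), so neither was called. Beside the drop, the oligodendrocyte marker sum in NeuN- IFN-γ wells was 2616 CPM at 24 h and 7489 CPM at 48 h, and its part was not tested.

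Within each well, Nlrc5 was also set against the sum of B2m, H2-K1 and H2-D1, a ratio that compares groups and not the genes' true amounts. In NeuN+ IFN-γ wells there were 163, 216 and 221 Nlrc5 counts per 100 class I counts (lowest, median, highest) at 6 h and 61.4, 71.1 and 83.2 at 24 h. There were 6.06, 8.74 and 15.8 at 48 h and 6.90, 14.7 and 18.1 at 72 h. In NeuN- wells the same ratio was 163, 196 and 257 at 6 h, 69.0, 96.2 and 111 at 24 h, 18.5, 44.6 and 54.4 at 48 h and 16.3, 32.1 and 54.5 at 72 h. The fractions overlapped at 6, 24 and 72 h and did not overlap at 48 h.

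By exact permutation tests over wells, adjusted over 10 comparisons, the log2 ratio fell in both fractions from 6 to 24 h (by 1.08 in NeuN- and 1.49 in NeuN+ wells) and from 24 to 48 h (by 1.24 and 2.90), each with adjusted p = 0.00433, which comes from the smallest p these wells allow. The ratio did not pass the test from 48 to 72 h. It stood 2.04 higher in NeuN- than in NeuN+ wells at 48 h (exact permutation, adjusted p = 0.00433) and 1.27 higher at 72 h (adjusted p = 0.00722). It stood 0.39 higher at 24 h (adjusted p = 0.0278). At 6 h the difference was -0.03 (SE 0.12, exact p = 0.8225), the only time at which it was under 0.1 in size.

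**Figure D3:**
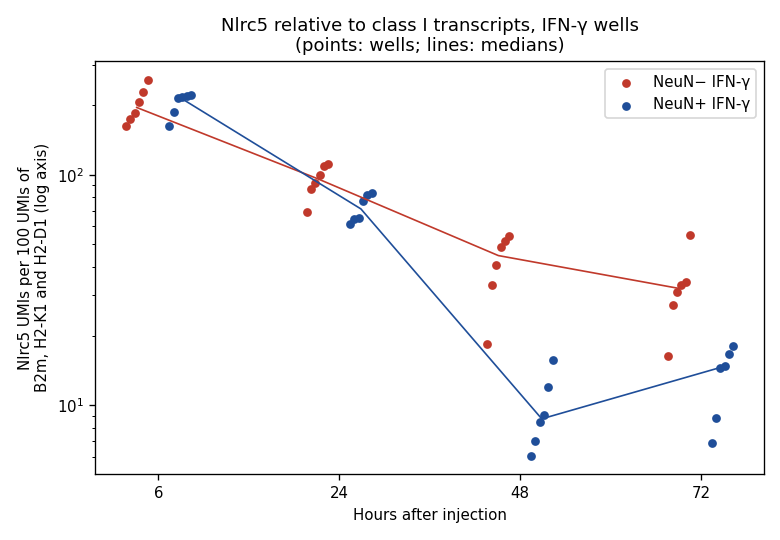
Nlrc5 counts per 100 counts of B2m, H2-K1 and H2-D1 together (log axis) against hours after injection, with 1 point per IFN-γ well and a line through the medians of each fraction. The medians of 216 (NeuN+) and 196 (NeuN-) at 6 h part to 8.74 and 44.6 at 48 h.

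The 3 genes most like each member over the 16 group means of wells were taken from 14349 genes by Pearson's r on log2(CPM + 1). The points share wells and depth, so r is a description. For Nlrc5 they were Gbp7 (0.991) and Iigp1 (0.979), both interferon-induced GTPases, and Parp3 (0.967). Its r with B2m was 0.880, with H2-K1 0.854 and with H2-D1 0.814. For B2m they were Iigp1 (0.916), Ddx60 (0.907) and Irgm2 (0.900), for H2-K1 Irgm2 (0.927), Ddx60 (0.893) and H2-Q4 (0.889), and for H2-D1 H2-Q4 (0.944), Tgtp2 (0.881) and Irgm2 (0.874). H2-K1 and H2-D1 had an r of 0.936 with each other.

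Of 37 other genes of the class I pathway and its regulators, 11 were called higher in at least 1 of the 8 comparisons of wells, and none was called lower. In NeuN- wells 9 of 12 tested were called at 6 h, 3 of 5 at 24 h and 0 of 4 at each of 48 and 72 h, beside 7.86%, 7.22%, 1.23% and 0.754% of all genes. In NeuN+ wells 9 of 18 were called at 6 h and at 24 h, and 0 of 11 at 48 and at 72 h, beside 1.08%, 1.47%, 0.15% and 0.351%. The list's median difference was 2.77, 1.25, -0.01 and -0.06 in NeuN- and 1.05, 1.22, 0.01 and 0.02 in NeuN+ wells, where the median of all tested genes was near 0.

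Among the regulators, Irf1, the transcription factor that binds IRF-type elements, was higher by 6.88 and 6.25 in NeuN- and by 6.24 and 5.94 in NeuN+ wells at 6 and 24 h, and was under the count limit later. Irf2, a relative of Irf1 that can oppose it, was higher by 1.28 and 1.25 in NeuN- wells and had values of 0.67 and 0.71 in NeuN+ wells, which were not called.

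Among the genes that feed peptide to class I, the transporter subunit Tap1 was higher by 4.68 in NeuN- wells at 6 h and by 3.22 and 5.46 in NeuN+ wells at 6 and 24 h. Its partner Tap2 was higher at 6 h by 4.55 and 2.37 in NeuN- and NeuN+ wells, and Tapbp, or tapasin, which bridges the heavy chain to the transporter, by 3.06 and 3.57. The peptide trimming enzyme Erap1 was higher by 2.77 in NeuN- wells at 6 h and by 2.08 and 2.18 in NeuN+ wells at 6 and 24 h, and had values of 0.53 (adjusted p = 0.39) and 0.48 (adjusted p = 0.31) at 48 and 72 h. The proteasome activator subunits Psme1 and Psme2 were higher by 2.76 and 2.65 in NeuN- wells at 6 h, and by 2.45 and 1.78 in NeuN+ wells. The non-classical heavy chain H2-T22 was higher by 1.44 and 1.72 in NeuN+ wells at 6 and 24 h, and H2-T23 by 2.31 at 24 h.

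In single nuclei at 48 h the question was which cells carried each gene. The 4699 nuclei came from 1 saline mouse (1016) and from 2 IFN-γ mice (2574 and 1109), with no cell barcode shared between them. Nuclei were clustered and named only by markers, which gave oligodendrocyte-like (191 saline, 744 and 306 IFN-γ), astrocyte-like (21, 135 and 37), VGLUT2-neuron-like (97, 416 and 104), GABA-neuron-like (250, 469 and 209) and dopamine-neuron-like nuclei (175, 154 and 109). Another 11 clusters with 1148 nuclei led in no marker list by enough to be named. Cluster 11 (31, 49 and 54 nuclei) had all 7 microglial markers in at least 5% of its nuclei. Over all mice they summed to 6122 CPM there and to 64.9 to 146 CPM in the named classes. The study counted 134 microglia, and cluster 11 held 134 nuclei. It was left unnamed by a rule on depth and leading genes, since none of those 7 markers was among its 10 leading genes by fold. Its median count of UMIs (molecules counted once each) was under that of the whole mouse by more than a factor of 3 in 2 mice. These were the saline mouse (2801 against 14645.5) and IFN-γ mouse 2 (3909 against 11767), and not IFN-γ mouse 1 (3800 against 9404.5). Oligodendrocyte-like nuclei were about as shallow, at medians of 3383, 3446 and 4202. With 1 saline mouse, that mouse is assumed to vary like the IFN-γ mice. Intervals on levels and shares cover counting error only.

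Nlrc5 was counted mainly in the glia-like nuclei and cluster 11 at this time. In oligodendrocyte-like nuclei, the cells that make myelin, it was 0 of 694527 UMIs in the saline mouse, which allows up to 4.32 CPM. In the IFN-γ mice it was 100.0 CPM (95% interval 88.4 to 113) and 112 CPM (95.6 to 131), or 23.1 and 26.0 times that limit. In astrocyte-like nuclei it was 0 in saline, with a limit of 27.5 CPM, and 83.5 and 81.6 CPM after IFN-γ. In cluster 11 it was 11.9 CPM from 1 UMI in saline, and 209 and 172 CPM after IFN-γ. The intervals of cluster 11 lay above those of oligodendrocyte-like nuclei in IFN-γ mouse 1, and overlapped them in mouse 2.

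In the named neuronal classes Nlrc5 was at or under 3.12 CPM with or without IFN-γ. VGLUT2-neuron-like nuclei, which are glutamatergic, held 0.595 CPM in saline and 2.46 and 0 CPM after IFN-γ, a ratio of 4.12 (0.641 to 173) in mouse 1. GABA-neuron-like nuclei held 0, 1.22 and 3.12 CPM, or 2.0 and 5.13 times what 3 saline UMIs would give. Their counting intervals were 0 to 0.749 CPM in saline, 0.583 to 2.24 CPM in mouse 1 and 1.66 to 5.34 CPM in mouse 2. The interval of mouse 1 overlapped that of saline. Dopamine-neuron-like nuclei held 2.25 CPM in saline (1.03 to 4.27) and 2.55 (1.03 to 5.26) and 2.69 CPM (0.988 to 5.86) after IFN-γ, ratios of 1.13 (0.359 to 3.42) and 1.20 (0.35 to 3.76). Of these classes none passed the test for Nlrc5 (adjusted p = 0.98, 1 and 1), and a change by a factor of up to 3.42 in dopamine-neuron-like nuclei of mouse 1 lies within the counting interval. In the unnamed clusters, by mouse and where at least 10 nuclei were present, Nlrc5 ranged from 0 to 1.62 CPM in saline and from 0 to 10.6 CPM after IFN-γ, while H2-K1 ranged from 0 to 4.30 and from 57.6 to 140.6 CPM.

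B2m, H2-K1 and H2-D1 stood higher after IFN-γ in those same neuronal nuclei. H2-K1 went from 0 of 1679619 UMIs to 62.5 and 96.6 CPM in VGLUT2-neuron-like nuclei, or 35.0 and 54.1 times what 3 saline UMIs would give. It went from 0.203 CPM, a single UMI, to 78.3 and 142 CPM in GABA-neuron-like nuclei and from 0.25 CPM, also 1 UMI, to 44.9 and 109 CPM in dopamine-neuron-like nuclei. B2m went from 3.57 to 61.7 and 83.8 CPM in VGLUT2-neuron-like nuclei, from 2.84 to 54.6 and 102 CPM in GABA-neuron-like nuclei and from 3.50 to 45.6 and 79.5 CPM in dopamine-neuron-like nuclei. IFN-γ mouse 2 was above mouse 1 for each of these values.

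In the 1 saline mouse H2-D1 had the highest level of the 4 genes in VGLUT2-neuron-like and GABA-neuron-like nuclei. Its interval in dopamine-neuron-like nuclei (2.10 to 6.19 CPM) overlapped that of B2m (1.92 to 5.88 CPM). In saline NeuN+ wells its median (2.28 CPM) was below those of B2m and H2-K1 (4.55 and 2.84 CPM). H2-D1 read 16.1 CPM (10.6 to 23.4) in saline VGLUT2-neuron-like nuclei, 6.70 CPM in GABA-neuron-like and 3.75 CPM in dopamine-neuron-like nuclei. After IFN-γ it read 66.1 and 115 CPM, 78.0 and 115 CPM, and 44.1 and 91.6 CPM in these classes. Its folds of 4.11 and 7.17 in VGLUT2-neuron-like nuclei were below those of 11.8 and 24.4 in dopamine-neuron-like nuclei, a difference between classes that was not tested.

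Oligodendrocyte-like nuclei held 3 clusters, of which cluster 2, with 388 nuclei, had none from the saline mouse. Nlrc5 there was 156 and 165 CPM in the IFN-γ mice, against 75.6 and 74.2 CPM in cluster 0 and 58.7 and 61.4 CPM in cluster 5, which also held saline nuclei. The clusters were formed from these same data. Iigp1 and Gbp7, both among the genes most like Nlrc5 in wells, were among the 10 leading genes of cluster 2 by fold. Its higher Nlrc5 and its lack of saline nuclei are thus a description. In oligodendrocyte-like nuclei as a whole B2m went from 2.88 to 844 and 1145 CPM, H2-K1 from 1.44 to 328 and 416 CPM and H2-D1 from 5.76 to 564 and 677 CPM, with saline values from 4 UMIs or fewer. In astrocyte-like nuclei B2m went from 9.16 to 222 and 301 CPM, H2-K1 from 18.3 to 289 and 365 CPM and H2-D1 from 18.3 to 110 and 211 CPM. Cluster 11 began higher, at 286 CPM for B2m, 107 CPM for H2-K1 and 59.5 CPM for H2-D1, and reached 648 and 1158, 403 and 835, and 347 and 745 CPM. Its B2m ratios of 2.27 and 4.05 were therefore below those of every other class.

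**Figure D4:**
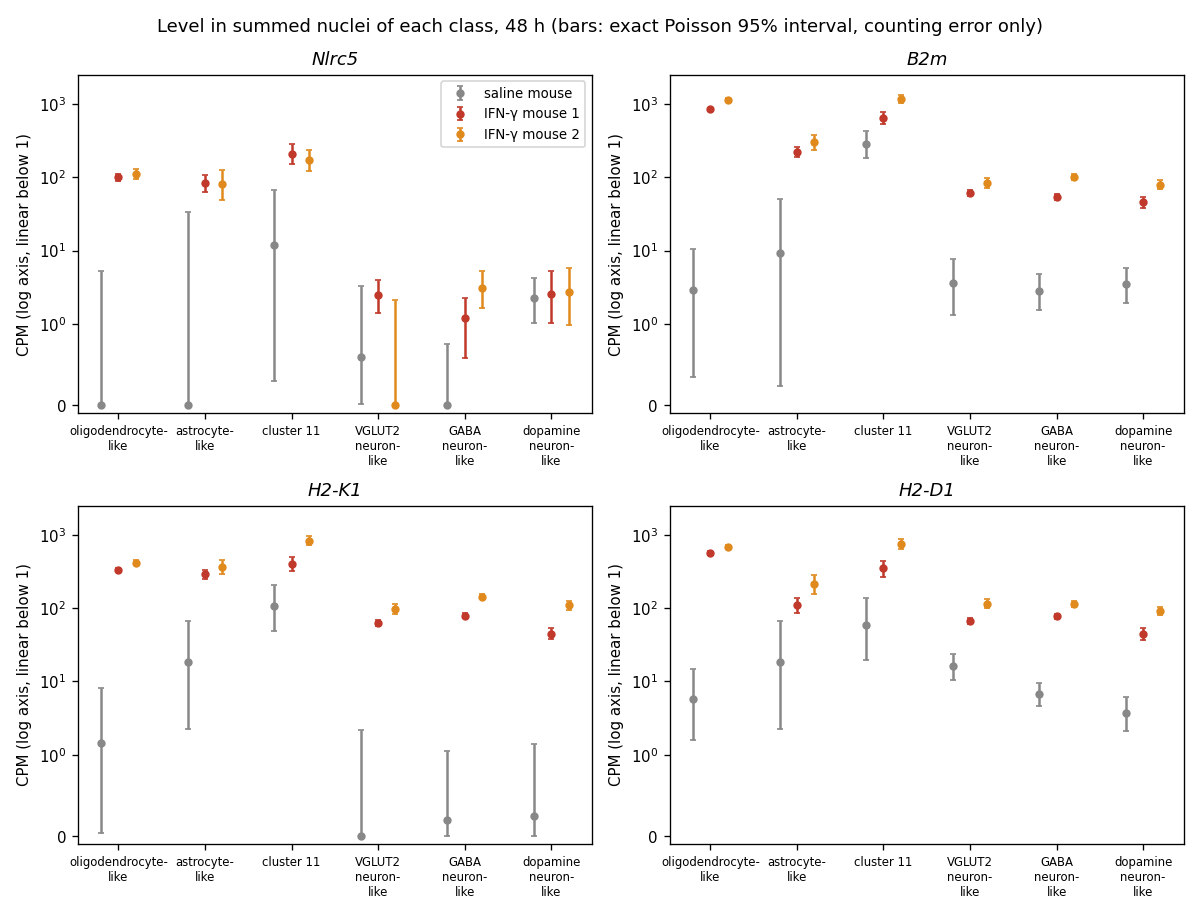
CPM (log axis, linear below 1) of each gene in 6 classes of nuclei at 48 h for the saline mouse and both IFN-γ mice, with exact Poisson 95% intervals that cover counting error only. Nlrc5 after IFN-γ is at or above 81.6 CPM in oligodendrocyte-like and astrocyte-like nuclei and in cluster 11, and at or below 3.12 CPM in the neuronal classes, where H2-K1 is at or above 44.9 CPM.

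Of 24 tests of a member in a class, 14 were called higher by edgeR on counts summed per mouse, with a log2 difference beyond 3 overall and in each IFN-γ mouse. Each fit had 1 saline and 2 IFN-γ mice, so its p-values say little about the spread between mice, and they moved either way with DESeq2. Oligodendrocyte-like nuclei had 4 of 4, beside 0.617% of all genes, with B2m at 8.45, H2-K1 at 7.99 and H2-D1 at 6.79. Astrocyte-like nuclei had B2m (4.77, adjusted p = 2.15e-07) and H2-K1 (4.13, adjusted p = 1.87e-08), beside 0.0844%, while Nlrc5 and H2-D1 missed the limit there (both adjusted p = 0.0161). VGLUT2-neuron-like nuclei had 2 (B2m and H2-K1, beside 0.0181%), GABA-neuron-like 2 (H2-K1 and H2-D1, beside 0.0222%) and dopamine-neuron-like 3 (B2m, H2-K1 and H2-D1, beside 0.0503%). In GABA-neuron-like nuclei B2m missed the limit (4.74, adjusted p = 0.0123) and was called with RLE factors and with DESeq2. Cluster 11 had a call for Nlrc5 (3.90, adjusted p = 0.0034), beside 0.783%. H2-D1 there was at 3.17 (adjusted p = 3.47e-05), but at 2.49 in IFN-γ mouse 1, under the limit. B2m and H2-K1, with higher saline levels there, had ratios of 2.27 and 4.05 and of 3.76 and 7.79. All 4 members passed the limit on UMIs summed over the 3 mice in each class. Members with few or no saline UMIs, such as H2-K1 in VGLUT2-neuron-like nuclei (0), passed it mainly through the IFN-γ mice. Nlrc5 in GABA-neuron-like nuclei, also at 0 in saline, passed it and was not called. The tally of calls was thus partly set by that limit and is a description. With DESeq2 neither astrocyte-like call was made, nor that of Nlrc5 in cluster 11. RLE factors also lost the astrocyte-like call of B2m and kept that of H2-K1.

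RNA released from broken cells can add glial transcripts to neuronal droplets. The myelin gene Mbp in neuronal nuclei of the IFN-γ mice stood at 0.264% to 0.748% of its CPM in oligodendrocyte-like nuclei. B2m stood at 5.40% to 8.92%, H2-K1 at 13.7% to 34.3%, H2-D1 at 7.82% to 17.0% and Nlrc5 at 0% to 2.78%. The 7 microglial markers, over all mice, summed to 134 to 146 CPM in the neuronal classes and to 6122 CPM in cluster 11. The proportion of H2-K1 to B2m also differed between classes: 38.9 and 36.3 H2-K1 UMIs per 100 of B2m in oligodendrocyte-like nuclei, 129.9 and 121.4 in astrocyte-like nuclei and 98.4 to 143.4 in the neuronal classes. Nlrc5 per 100 H2-K1 UMIs was 30.5 and 27.0 in oligodendrocyte-like nuclei, 28.9 and 22.4 in astrocyte-like nuclei and 0 to 5.69 in the neuronal classes. The part of released RNA in the neuronal levels was not tested.

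By share of nuclei with at least 1 UMI, Nlrc5 was seen in 0 of 191 oligodendrocyte-like nuclei of the saline mouse, which allows a share of up to 1.57%, and in 198 of 744 (26.6%) and 110 of 306 (35.9%) after IFN-γ. The share after IFN-γ was 25.9% and 37.8% in astrocyte-like nuclei and 49.0% and 50.0% in cluster 11. In the neuronal classes it was 0% to 5.74%, beside 0% to 5.14% in saline, at a median depth of 13700 to 21080 UMIs against 3383 to 4202 in oligodendrocyte-like nuclei. H2-K1 was seen in 0% to 0.571% of saline and in 43.5% to 83.7% of IFN-γ neuronal nuclei.

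Thinning each nucleus to 3000 UMIs set the classes on one depth and left out 64, 256 and 35 oligodendrocyte-like nuclei. Nlrc5 was then in 23.6% and 26.2% of oligodendrocyte-like, 17.4% and 24.3% of astrocyte-like and 35.3% and 46.8% of cluster 11 nuclei of the IFN-γ mice, and in 0% to 1.5% of the neuronal classes. At this depth at least 1 of B2m, H2-K1 and H2-D1 was in 95.5% and 95.6% of oligodendrocyte-like, 76.0% and 83.8% of astrocyte-like and 34.6% to 62.1% of neuronal nuclei. In the saline mouse it was in 2.36% of oligodendrocyte-like and 2.35% to 4.4% of neuronal nuclei.

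Nlrc5 and class I were also counted nucleus by nucleus. In oligodendrocyte-like nuclei of IFN-γ mouse 1, 194 of the 198 nuclei with Nlrc5 also had B2m, H2-K1 or H2-D1, and in mouse 2, 108 of 110, close to the share of all such nuclei with class I (96.9% and 97.4%). In dopamine-neuron-like nuclei of the saline mouse 8 of 9 nuclei with Nlrc5 had no class I UMI. All 4 genes were found together in 105 of 744 and 83 of 306 nuclei. Many more nuclei had class I without a Nlrc5 UMI, since 721 of 744 and 298 of 306 had at least 1 class I gene. A single UMI is a coarse measure at these depths, and a nucleus without one may still hold the transcript.

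Joint detection moved little with Nlrc5. In mouse 1 B2m was in 90.4% (85.4% to 94.1%) of oligodendrocyte-like nuclei with Nlrc5 and in 86.4% (83.3% to 89.2%) of those without. H2-K1 was in 70.7% against 64.1%, and H2-D1 in 78.3% against 79.3%. In mouse 2 the pairs were 96.4% and 91.8% for B2m, 80.0% and 68.9% for H2-K1 and 93.6% and 84.7% for H2-D1. Nuclei with Nlrc5 were deeper, at medians of 3661.5 against 3368 UMIs in mouse 1 and 4592 against 3994.5 in mouse 2. At 3000 UMIs the pairs in mouse 1 were 84.3% and 81.2% for B2m, 55.7% and 57.1% for H2-K1 and 70.4% and 71.8% for H2-D1, and in mouse 2 87.3% and 89.0%, 67.6% and 59.0%, and 81.7% and 76.0%. At equal depth the sign of the difference was not the same in the 2 mice for any of the 3 genes.

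**Figure D5:**
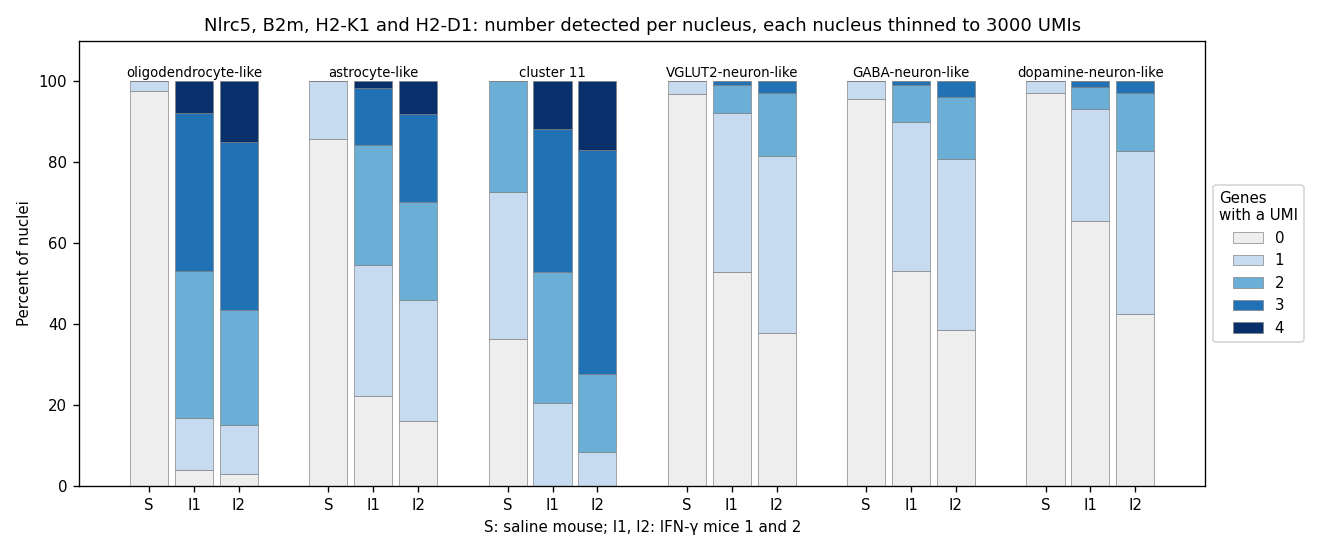
Percent of nuclei with a UMI of 0, 1, 2, 3 or 4 of the genes Nlrc5, B2m, H2-K1 and H2-D1, by class and mouse, each nucleus thinned to 3000 UMIs. All 4 genes are found in 38 of 488 and 41 of 271 oligodendrocyte-like nuclei of the IFN-γ mice and in 0 of 127 of the saline mouse.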

How the data were processed

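The authors deposited raw UMI counts per gene for 84 plate wells (sequenced from the 3′ end of transcripts, poly(A) trimmed, aligned with STAR to GRCm38 with Gencode vM10, version of STAR not given in the sources used here, UMIs merged at 1 mismatch) and for 4699 single nuclei, whose counts include introns and from which doublets and low-quality nuclei had been removed. Genes and motif letters, marker and pathway lists and comparisons were chosen with earlier results of these data known.

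From the deposited counts, wells were compared with edgeR 4.0.16 (filterByExpr, TMM, quasi-likelihood F test, Benjamini-Hochberg adjustment over all genes tested) in R 4.3.3. A call needed a log2 difference beyond 1 and adjusted p below 0.01. Nuclei were clustered (2000 variable genes, 30 components, 15 neighbours, Leiden resolution 1) and named from markers where at least 3 were in 5% of nuclei. UMIs were summed per mouse and class, kept at 10 or more over the 3 sums, and called beyond a log2 difference of 3 in the fit and in each IFN-γ mouse. Low members were compared by exact permutation with a pseudocount of 1 CPM. DESeq2 1.42.0, RLE factors, no filter, thinning and leaving out each well were alternatives. Named pathway genes were those called in at least 1 of the 8 comparisons of wells. The tests were checked on simulated counts. Some members of the marker and pathway lists are counted but not reported here by name.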

Additional observations from a re-analysis of the deposited data

Results flagged for a closer look

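Among 64 groups of wells (4 genes, 16 groups), 6 held a well far from the others by Dixon's criterion, and chance would mark about 5% of groups. In the NeuN- IFN-γ wells of 24 h, Nlrc5 read 402 CPM in well 3 and 486 to 541 CPM in the other wells. B2m read 63.3 CPM in well 1 of the NeuN+ IFN-γ wells of 6 h, against 42.3 to 45.2 CPM in the others, and 4.3 CPM in well 4 of the NeuN+ saline wells of 6 h, against 7.04 to 7.57 CPM. H2-K1 was at 0 in well 3 of the NeuN+ saline wells of 72 h, where the others held 2.38 to 2.90 CPM. H2-D1 was at 8.42 CPM in well 2 of the NeuN- saline wells of 48 h, where the others were at 0, and at 0 in well 1 of the NeuN- IFN-γ wells of 6 h, a well of 20962 counts whose companions held 27.8 to 48.2 CPM.

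Beyond the levels in IFN-γ wells, the fractions differed in an effect, a step in time or a ratio in 4 results, each of Nlrc5. Its IFN-γ effect at 24 h was smaller in NeuN- wells (interaction -2.38), a call lost with NeuN+ wells thinned (adjusted p = 0.159) and without saline NeuN- well 1 (adjusted p = 0.022). Its drop from 24 to 48 h was smaller in NeuN- wells by 2.10 on the log2 scale. The log2 ratio of Nlrc5 to the class I counts was higher in NeuN- wells by 2.04 at 48 h and by 1.27 at 72 h.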

How the results depend on the processing

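With NeuN+ wells thinned to the median NeuN- depth, 13 member tests were called after IFN-γ instead of 25, since most NeuN+ members fell under the count limit, and no difference between fractions instead of 1. Leaving out single wells gave 0 to 1 such difference, the loss coming without saline NeuN- replicate 1 of 24 h. As differences of effects over saline, 2 steps between times were called instead of 7. In saline wells 3 members were called between fractions with no filter and 3 with DESeq2, against 0, where no member passed the filter. Values that changed sign were, for the difference between fractions, H2-K1 at 6 h (0.03 with no filter, -0.31 to 0.22 without single wells), B2m at 24 h (-1.05 to 0.18 without single wells), H2-K1 at 48 h (0.48 thinned, -1.67 to 0.15 without single wells) and B2m at 72 h (-1.0 thinned, -0.49 to 1.5 without single wells), none of them called. As differences of effects, the steps of Nlrc5 (0.80) and H2-K1 (0.36) from 24 to 48 h and of B2m (0.76) from 48 to 72 h in NeuN- wells, and of H2-D1 (0.17) from 24 to 48 h in NeuN+ wells, turned positive. The causes were not tested. Over members in wells, 273 of 291 values under other settings, and 559 of 572 without single wells, kept direction and call. In nuclei 110 of 119 did under other settings, 31 of 48 values stayed within the spread without an IFN-γ mouse and 17 moved, and 91 of 140 shares of nuclei moved with thinning. No paired analysis was possible because the labels give no replicate numbers. Depth limits the NeuN- saline values, where at 48 h Nlrc5 rests on 2 counts and H2-D1 on 1.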

Other observations

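Nuclei at 48 h carried calls in the class I pathway, in genes named here after their values were seen. Of the 37 genes, only 4 in NeuN- and 11 in NeuN+ wells passed the count limit at 48 h, and none was called. Most of the list was thus not tested in those wells, and the log2 limit was 3 in nuclei and 1 in wells. In oligodendrocyte-like nuclei 9 of 32 tested genes of the list were called higher, beside 0.617% of all genes. They included Irf1, the transporter subunits Tap1 and Tap2, the immunoproteasome subunits Psmb8 and Psmb9, the class I relatives H2-Q4 and H2-Q7, and the non-classical heavy chains H2-T23 (7.98, adjusted p = 9.10e-69) and H2-T22 (3.92, adjusted p = 2.60e-08). In dopamine-neuron-like nuclei 3 of 32 were called (H2-Q4, H2-Q6 and H2-Q7), beside 0.0503% of all genes, and in GABA-neuron-like nuclei 1 of 32 (H2-Q6), beside 0.0222%. Cluster 11 had 3 of 28, beside 0.783%: H2-Q4, H2-Q6 and Ciita, the class II transactivator and a relative of Nlrc5. Astrocyte-like (0 of 26, beside 0.0844%) and VGLUT2-neuron-like nuclei (0 of 33, beside 0.0181%) had none. The H2-Q genes are related in sequence. How much they share with one another was not measured here, so their counts are uncertain.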
